A study of Homo sapiens with 12 samples.

Results

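S100 proteins are small calcium-binding proteins that mostly act as dimers and carry pairs of EF-hands, the loop motif that holds the calcium ion. Inside the cell, calcium binding exposes a surface that grips a partner protein, among them annexins, nonmuscle myosin and CACYBP. Some members are also released and act on surface receptors such as RAGE. In breast cancer the family is known mainly through S100A4, a protein tied to cell motility and metastasis. The 10 genes described here, S100A2, S100A3, S100A4, S100A6, S100A10, S100A11, S100A13, S100A14, S100A16 and S100P, were taken by gene symbol from an abundance table of 21574 features. They were selected on their TPM in this table, in that they were listed with earlier results of it known, and they are not every S100 gene that was detected. Their levels and differences below are therefore a description of these libraries, and the p-values only set each difference against the spread between libraries.

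The data are transcript abundances of MDA-231-LM2, a subline of MDA-MB-231 human breast cancer cells that was selected for growth in the lung. The 4 groups, of 3 libraries each, were cells labelled Ctrl, Ctrl+IGF1, TMEM216 and TMEM216+IGF1. TMEM216 encodes a transmembrane protein found at the base of the primary cilium, and IGF1 is a growth factor that signals through IGF1R. The labels give neither what was done to TMEM216, nor how the Ctrl population was made, nor a dose or time of IGF1, nor whether a population is 1 clone. They also do not say whether the 3 libraries of a group came from separate cultures, so the variation behind each p-value is that of libraries and may be technical. Values are TPM, an abundance per transcript length scaled to a fixed total per library, so sequencing depth is unknown. In these bulk libraries, fewer expressing cells and less RNA per cell cannot be told apart.

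TMEM216 itself was at 24.0 to 30.1 TPM in the 6 libraries of the Ctrl population and at 163 to 250 TPM in the 6 libraries of the TMEM216 population, higher in every one. The markers of the line were present, with VIM at 5755 to 7272 TPM, and the oestrogen receptor gene ESR1 reached at most 0.204 TPM. Of 6 markers of other cell types, CD3E was listed at 0 in all 12 libraries, and the 6 summed to 2.47 to 3.47 TPM in the Ctrl groups and 3.13 to 5.32 TPM in the TMEM216 groups. Among them the monocyte marker CD14 was at 1.47 to 3.94 TPM. The endothelial marker PECAM1 was at 1.04 ± 0.0338 TPM in Ctrl, 0.766 ± 0.113 in Ctrl+IGF1, 1.18 ± 0.122 in TMEM216 and 1.83 ± 0.313 in TMEM216+IGF1 (SD, n = 3 each). It rose in the TMEM216 population with IGF1 (log2 difference 0.68, adjusted p = 0.0324) and averaged over IGF1 (0.38, adjusted p = 0.044) in limma. The call with IGF1 was lost in 9 of the 12 fits that left out 1 library, all but those without Ctrl+IGF1 replicate 2, TMEM216 replicate 1 or TMEM216 replicate 3, and the averaged call in 11, all but the one without TMEM216+IGF1 replicate 3. Ctrl+IGF1 replicate 3 and TMEM216 replicate 1 stood apart from the other 10 libraries at the low end of principal component 1 (22% of the variance), at -31.0 and -19.4. The other 10 began at -8.44 (Ctrl+IGF1 replicate 1) and reached nearly as far on the high side as TMEM216 replicate 1 did on the low side. At the high end lay TMEM216 replicate 3 (18.2) and TMEM216+IGF1 replicate 2 (18.1), which were left out only singly. Differences that moved when the low-end pair was left out are given both ways in many places below.

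Of the 10 genes, 9 lie on chromosome 1, where most of the S100 family forms a cluster, and S100P lies on chromosome 4. In the order of protein-coding genes, S100A4, S100A3, S100A2, S100A16, S100A14 and S100A13 follow each other with no other coding gene between them. S100A5 lies between S100A6 and S100A4, and S100A10 and S100A11 are next to each other. The 10 genes had a RefSeq promoter entry each (GRCh38.p14). The 250 bases before the start site are shown for 4 of them: S100A6, the most abundant, S100A2 and S100A16, on which the group comparisons turn, and S100P, the one outside the cluster. Capitals mark matches, on either strand, to the AP-1 motif TGANTCA, the TATA box TATAAA, the GC box GGGCGG and the E-box CACGTG, and all 4 sequences read 5′ to 3′ in the direction of the gene.
S100A6 (chr1:153535992-153536241, minus strand): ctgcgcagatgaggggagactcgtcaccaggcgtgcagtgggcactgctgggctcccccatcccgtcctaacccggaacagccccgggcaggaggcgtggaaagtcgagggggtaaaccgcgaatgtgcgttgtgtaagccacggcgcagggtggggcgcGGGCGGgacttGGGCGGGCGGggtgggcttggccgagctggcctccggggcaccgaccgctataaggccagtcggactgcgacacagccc
S100A2 (chr1:153565845-153566094, minus strand): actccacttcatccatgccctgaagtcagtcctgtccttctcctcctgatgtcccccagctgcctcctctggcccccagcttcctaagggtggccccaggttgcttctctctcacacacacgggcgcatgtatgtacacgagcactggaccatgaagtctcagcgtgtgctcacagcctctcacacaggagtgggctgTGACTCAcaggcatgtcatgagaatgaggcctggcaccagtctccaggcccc
S100A16 (chr1:153613138-153613387, minus strand): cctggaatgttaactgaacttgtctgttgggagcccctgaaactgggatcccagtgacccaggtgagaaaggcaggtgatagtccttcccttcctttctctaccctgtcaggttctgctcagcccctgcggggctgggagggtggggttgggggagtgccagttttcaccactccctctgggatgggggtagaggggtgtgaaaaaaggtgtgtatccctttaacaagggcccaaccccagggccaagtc
S100P (chr4:6693628-6693877, plus strand): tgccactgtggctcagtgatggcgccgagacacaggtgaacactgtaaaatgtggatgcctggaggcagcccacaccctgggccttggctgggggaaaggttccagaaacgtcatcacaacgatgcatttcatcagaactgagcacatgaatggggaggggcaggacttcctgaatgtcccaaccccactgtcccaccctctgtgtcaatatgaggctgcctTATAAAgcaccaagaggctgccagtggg

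The S100A6 window held 3 GC boxes, the nearest 2 of which share bases, beginning 90, 79 and 75 bases before the start. S100A2 held 1 AP-1 match 52 bases before its start, and S100P held a TATA box 28 bases before its start. No searched motif was found in the S100A16 window. Over all 10 windows, AP-1 was matched in 2 (S100A2 and S100A3), the TATA box in 2 (S100A4 and S100P), the GC box in 5 and the E-box in 0. Among 35114 promoter windows of the same length, the shares were 6.57%, 10.7%, 42.6% and 6.35%. The windows also differed in CpG content, with 24 CpG pairs in S100A6 and in S100A10, 4 in S100A2 and in S100P, 1 in S100A16, and a median of 11 over all windows. These are letter matches and not measured binding.

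The 10 genes differed widely in level, and 1 gene made up most of the sum. S100A6, or calcyclin, the partner of CACYBP, ranked between the 5th and 10th most abundant feature in every library and gave 59.6% to 64.0% of the summed TPM of the 10. S100A11 (ranks 92 to 151) and S100A10 (ranks 109 to 149) followed, both well under it and close to each other. S100A16 (319 to 421 TPM), S100A13 (150 to 233 TPM) and S100A4 (136 to 208 TPM) came next, then S100A2 (66.2 to 99.0 TPM) and S100A3 (12.2 to 24.5 TPM). S100P (0.470 to 3.01 TPM) and S100A14 (0.168 to 0.973 TPM) were lowest. Together the 10 genes took 0.634% to 0.979% of all TPM.

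**Figure D1:**
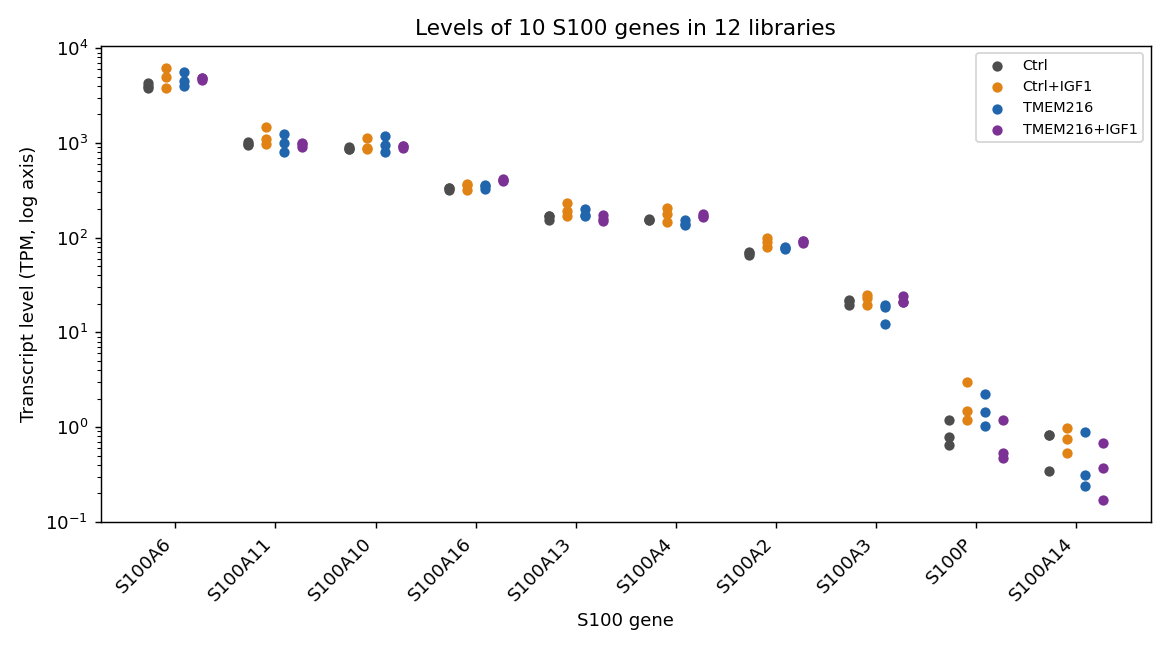
TPM (log axis) of the 10 S100 genes in each of the 12 libraries, 1 point per library, coloured by group and ordered by mean level. The order of the genes is nearly the same in the 4 groups, from S100A6 at 3814 to 6256 TPM down to S100A14 at 0.168 to 0.973 TPM.

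Other members of the family were at low levels or listed at 0. S100A5 lay at 3.16 to 7.59 TPM, S100A1 at 0.843 to 3.19 TPM and S100Z at 0.632 to 3.51 TPM. None of these 3 is among the 10 genes, although their levels were like those of S100P or above them. S100A7, S100A7A, S100A8, S100A12 and S100G were listed at 0 in all 12 libraries. S100A9, which forms calprotectin with S100A8, was listed at 0 in 11 libraries and at 0.202 TPM in Ctrl+IGF1 replicate 3. S100B, the glial and melanocytic member, was listed at 0 in 11 libraries and at 0.116 TPM in TMEM216+IGF1 replicate 2. Psoriasin and the calgranulins, which mark inflamed epithelium and myeloid cells, were thus at or near 0 here.

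Of the 10 genes, 9 passed the filter on low values (at least 1 TPM in 3 libraries) and were tested; S100A14 was not. None passed an adjusted p of 0.05 in any of the 7 comparisons made with limma, and the counts at an unadjusted p under 0.05 are given beside each one. The paragraphs below take the comparisons in turn, with the values of each library.

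S100A2, a member often lost in carcinomas, had the clearest separation by IGF1. It was at 69.5, 66.2 and 69.8 TPM in Ctrl and at 89.2, 80.4 and 99.0 TPM in Ctrl+IGF1, so every library with IGF1 was above every library without it. In the TMEM216 population it was at 80.4, 75.6 and 77.8 TPM without IGF1 and at 93.3, 88.0 and 91.7 TPM with it, again without overlap. The group means ran from Ctrl (68.5 ± 1.95, SD, n = 3) through TMEM216 (77.9 ± 2.41) to Ctrl+IGF1 (89.6 ± 9.32) and TMEM216+IGF1 (91.0 ± 2.74), and the last 2 did not differ beyond their spread. Averaged over both populations, S100A2 was 1.23-fold higher with IGF1 on the log2(TPM + 1) scale (log2 difference 0.30, SE 0.055, 95% interval 0.18 to 0.42). The unadjusted p was 0.00016, and the adjusted p over all 13071 tested features was 0.132 in limma, so it did not pass. The adjusted p ranged from 0.0467 to 0.448 over the 20 alternatives, passing only when Ctrl+IGF1 replicate 2 was left out (log2 difference 0.34). Without the pair of libraries that stood apart, the difference was 0.27 (adjusted p = 0.0947).

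In the same averaged IGF1 comparison, 0 of the 9 tested genes passed in limma, where the background was 0.0536% of all tested features. At an unadjusted p under 0.05 there were 4 of 9 (S100A2, S100A16, S100A4 and S100A3), against 5.88% of all features. All 9 differences were above 0, with a median of 0.152 beside -0.028 over all tested features. Without the pair of libraries the medians were 0.13 and -0.011, with S100P at -0.13. The 9 genes share the same 12 libraries, and the share of all features above 0 was not counted, so nothing is read from the signs. The smallest of the 9 differences was that of S100P, at 0.0094 (95% interval -0.39 to 0.41), and it turned negative in 6 of the 12 fits that left out 1 library. S100A10 (0.011), S100A13 (0.039) and S100A11 (0.092) also lay within their standard errors.

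**Figure D2:**
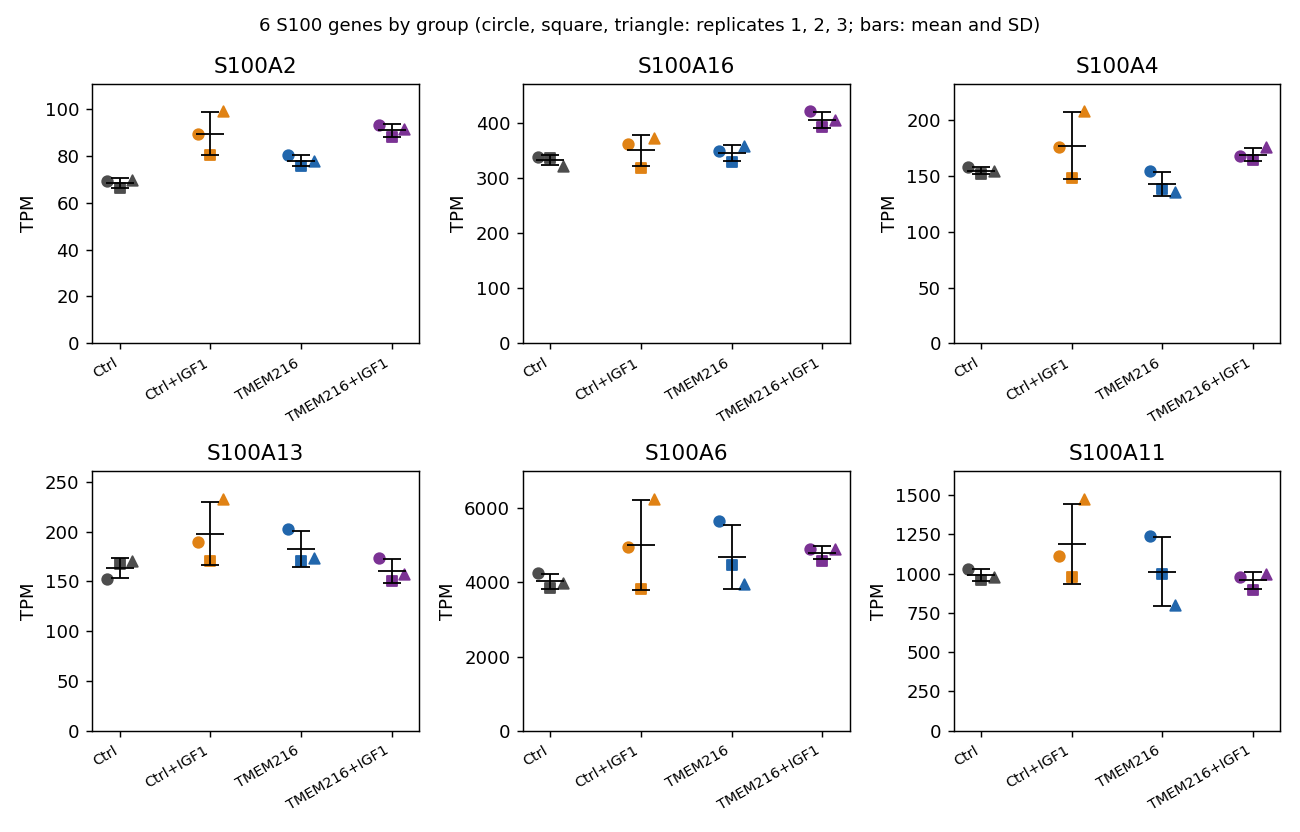
TPM of S100A2, S100A16, S100A4, S100A13, S100A6 and S100A11 in the 4 groups (axes start at 0), with replicates 1, 2 and 3 as circle, square and triangle, and black bars for the mean and SD of 3 libraries. For S100A2 every IGF1 library lies above the untreated libraries of its own population, for S100A16 TMEM216+IGF1 (392 to 421 TPM) lies above the other groups, and in Ctrl+IGF1 replicate 3 is the highest for all 6.

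Within the Ctrl population, IGF1 gave 0 of 9 passing genes in limma (background 0.0306%) and 3 of 9 at an unadjusted p under 0.05 (S100A2, S100A13 and S100P, against 6.89% of features). The groups did not overlap for 2 of 9, S100A2 and S100A13, against 14.6% of all features. S100A13, a member that takes part in the release of FGF1, was at 152, 168 and 171 TPM in Ctrl and at 190, 171 and 233 TPM in Ctrl+IGF1. The highest Ctrl library and the lowest Ctrl+IGF1 library were equal to 3 digits. The difference was 0.26 on the log2 scale (adjusted p = 0.673), and 0.14 without the pair of libraries that stood apart. For S100A2 the difference was 0.38 (SE 0.078, adjusted p = 0.447), and 0.30 without the pair.

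The most abundant members were higher in Ctrl+IGF1 on average, with wide spread. S100A6 was at 4250, 3845 and 3989 TPM in Ctrl and at 4953, 3814 and 6256 TPM in Ctrl+IGF1, and the lowest and the highest of the 6 were both IGF1 libraries. Its log2 difference of 0.29 (95% interval -0.058 to 0.63) came down to 0.11 without the pair of libraries. S100A11, a partner of annexin A1, was at 1031, 958 and 980 TPM in Ctrl and at 1111, 980 and 1477 TPM in Ctrl+IGF1. Its difference went from 0.24 to 0.076. S100A10, which forms a tetramer with annexin A2 and does not depend on calcium, went from 0.11 to -0.0014 and showed no separation, at 909, 860 and 869 TPM in Ctrl and 888, 869 and 1118 TPM in Ctrl+IGF1.

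Within the TMEM216 population, IGF1 gave 0 of 9 passing genes in limma (background 0.0153%), with 4 of 9 at an unadjusted p under 0.05 (S100A16, S100A2, S100A3 and S100A4, against 4.77% of features). The same 4 genes had higher values in all 3 TMEM216+IGF1 libraries than in all 3 TMEM216 libraries, against 10.2% of features with no overlap in either direction. S100A16, a broadly expressed member, was at 350, 329 and 358 TPM without IGF1 and at 421, 392 and 405 TPM with it. Its log2 difference was 0.23 (adjusted p = 0.784). S100A4 was at 155, 138 and 136 TPM without IGF1 and at 168, 164 and 176 TPM with it, a difference of 0.24. S100A3, a member best known from the hair cuticle, was at 18.4, 12.2 and 19.5 TPM without IGF1 and at 21.0, 20.8 and 24.0 TPM with it. The difference of 0.39 (adjusted p = 0.938) drew largely on TMEM216 replicate 2, its lowest library, and over the leave-one-out fits it ran from 0.19 to 0.51.

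S100A6, S100A10, S100A11 and S100A13 did not share that separation. S100A6 was at 5654, 4461 and 3966 TPM in TMEM216 and at 4914, 4592 and 4906 TPM in TMEM216+IGF1. The corresponding values of S100A11 were 1239, 1000 and 800 TPM without IGF1 and 982, 896 and 998 TPM with it. For S100A10 they were 1194, 957 and 803 TPM and 927, 877 and 931 TPM. In all 3 genes the untreated group enclosed the treated one, with TMEM216 replicate 1 at the top and replicate 3 at the bottom. That replicate 1 is of the pair that stood apart. Without the pair, the log2 difference went from 0.049 to 0.19 for S100A6, from -0.059 to 0.098 for S100A11 and from -0.093 to 0.056 for S100A10. For S100A6, the TMEM216 libraries at 4461 and 3966 TPM lay below all 3 treated ones. S100A13 was at 203, 171 and 174 TPM without IGF1 and at 174, 150 and 157 TPM with it, and the groups overlapped. Its difference went from -0.18 to -0.11 without the pair.

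Between the populations without IGF1, 0 of 9 genes passed in limma (background 1.09%), and 1 of 9, S100A2, had an unadjusted p under 0.05 (against 13.2% of features). S100A2 was also the 1 gene of the 9 whose groups did not overlap, higher in TMEM216 by 0.18 on the log2 scale (adjusted p = 0.333), where 21.8% of all features had no overlap. S100A3 was lower by -0.33 (95% interval to 0.0034), with TMEM216 replicate 2 at 12.2 TPM and Ctrl at 19.3, 21.6 and 21.7 TPM. S100A4 was at 158, 152 and 155 TPM in Ctrl, a log2 difference of -0.12, and TMEM216 replicate 1 (155 TPM), of the pair that stood apart, lay within that range. The other 2 TMEM216 libraries, at 138 and 136 TPM, lay below all 3 Ctrl libraries, and without the pair the difference was -0.18 (adjusted p = 0.256). For S100A16, with Ctrl at 338, 337 and 322 TPM, the difference was 0.056, smaller than the spread. Over the 9 genes the median difference was 0.144 beside -0.048 for all features. The 0.144 was the value of S100A10, with TMEM216 replicate 1 as its highest library, and without the pair of libraries the medians were 0.048 and -0.025.

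With IGF1 in both populations, 0 of 9 passed in limma (background 1.61%), and 3 of 9 had an unadjusted p under 0.05 (S100A16 higher, S100A13 and S100P lower, against 15.8% of features). S100A16 was the 1 gene of the 9 without overlap (19.7% of all features), with 361, 319 and 372 TPM in Ctrl+IGF1 and 421, 392 and 405 TPM in TMEM216+IGF1. The difference was 0.21 (SE 0.07, adjusted p = 0.168), and the adjusted p ran from 0.0968 to 0.439 over the 21 alternatives. S100A13 was lower in TMEM216+IGF1 by -0.29 (SE 0.11, adjusted p = 0.24), and by -0.17 without the pair of libraries. S100A11 had the same difference, -0.29, and -0.12 without the pair. S100P was lower by -0.70 (adjusted p = 0.223), and by -0.44 without the pair. S100A4 at 176, 148 and 208 TPM and S100A3 at 23.0, 19.4 and 24.5 TPM in Ctrl+IGF1 enclosed the values of TMEM216+IGF1. S100A2 differed by 0.027 (95% interval -0.14 to 0.2), and by 0.10 without the pair.

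**Figure D3:**
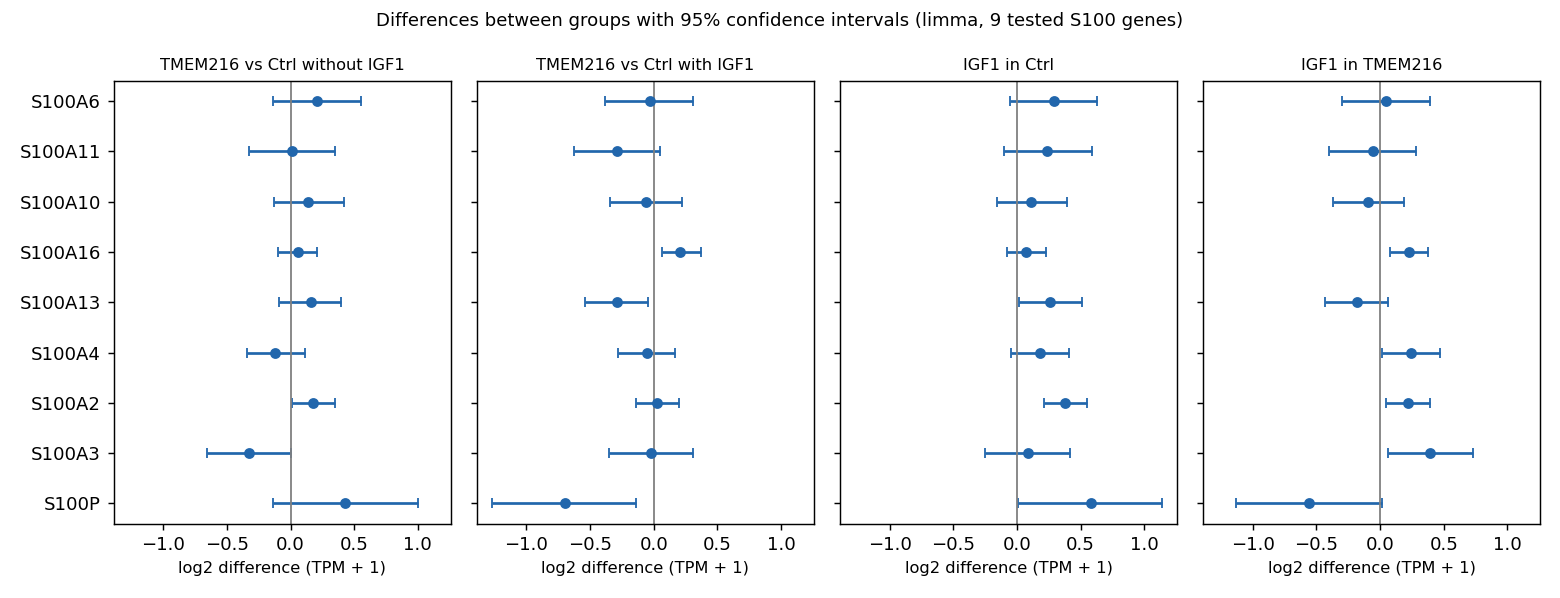
Log2 differences (x axis, log2(TPM + 1) scale) with 95% confidence intervals from limma for the 9 tested S100 genes (y axis) in 4 comparisons of 3 libraries with 3. Intervals are not adjusted for the number of features. For S100A2 both IGF1 intervals and that of TMEM216 vs Ctrl without IGF1 lie above 0. For S100A16 those of TMEM216 vs Ctrl with IGF1 (0.21) and of IGF1 in TMEM216 (0.23) do. The intervals of S100A13 and S100P for IGF1 in Ctrl, and of S100A3 and S100A4 for IGF1 in TMEM216, also lie above 0. Those of S100A13 and S100P for TMEM216 vs Ctrl with IGF1 lie below 0.

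Averaged over IGF1, the TMEM216 population gave 0 of 9 passing genes in limma (background 5.22%), and 1 of 9, S100A16, at an unadjusted p under 0.05 (against 20.1%). Its difference was 0.14 (adjusted p = 0.145), and 0.15 without the pair of libraries. The ratio of S100A6 to S100A11, taken within each library, was 4.01 to 4.12 in Ctrl, 3.89 to 4.46 in Ctrl+IGF1, 4.46 to 4.96 in TMEM216 and 4.91 to 5.13 in TMEM216+IGF1. The ratio of S100A11 to S100A10 was 1.11 to 1.32 in the Ctrl population and 0.996 to 1.07 in the TMEM216 population. These ratios were chosen after their values were seen and were not tested, and nothing is read from them.

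The interaction, that is the IGF1 difference in the TMEM216 population minus that in the Ctrl population, passed for 0 of 9 genes in limma (background 0.0153%), with 2 of 9 at an unadjusted p under 0.05 (S100A13 and S100P, against 5.38%). For S100A13 it was -0.45 (SE 0.16, adjusted p = 0.754), with an IGF1 difference of 0.26 in Ctrl and of -0.18 in TMEM216. Without the pair of libraries these were -0.25, 0.14 and -0.11. S100P, a member that binds ezrin and RAGE, was at 0.650, 1.20 and 0.791 TPM in Ctrl and at 1.46, 1.19 and 3.01 TPM in Ctrl+IGF1. In the TMEM216 population it was at 1.43, 2.23 and 1.02 TPM without IGF1 and at 0.470, 1.20 and 0.538 TPM with it. The groups overlapped in both populations, and the interaction of -1.13 (SE 0.37) had an adjusted p of 0.754. It was -1.97 with a pseudocount of 0.1 (adjusted p = 0.754) and -0.89 without the pair of libraries. At these levels, close to the pseudocount of 1, the scale shrinks differences, and the depth behind them is unknown. S100A14, an epithelial member, ranged from 0.168 to 0.973 TPM, with Ctrl at 0.345, 0.826 and 0.830 TPM and TMEM216+IGF1 at 0.679, 0.168 and 0.371 TPM. Tested without the filter, its adjusted p was at least 0.412 in each comparison.

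Single libraries set much of this spread. Ctrl+IGF1 replicate 3 had the highest value of the 12 libraries for 7 of the 10 genes. In that library the median deviation of the 9 tested genes from their own means was 0.38 on the log2 scale, and that of other tested features with a longest transcript of at most 1000 nucleotides was 0.27, while the median of all tested features was -0.161. Ribosomal protein genes took 16.9% of all TPM there, against 12.4% to 14.5% in the other 11 libraries. In TMEM216 replicate 1 the corresponding medians were 0.16, 0.13 and -0.049. The longest annotated transcripts of the 10 genes had a median of 1072 nucleotides (594 to 2184), against 3637 for the 12482 tested features with a length, and 5 of the 10 were at most 1000 nucleotides, against 3.04% of the features. In Ctrl+IGF1 replicate 3, short transcripts and ribosomal protein genes were thus higher along with the S100 genes. TMEM216 replicate 1 was mixed. There S100A10 (0.36), S100A6 (0.30), S100A11 (0.27), S100A13 (0.22) and S100P (0.16) lay above their means. S100A2 (-0.01), S100A16 (-0.03), S100A4 (-0.05) and S100A3 (-0.12) lay below theirs. Its ribosomal share was 14.5%, beside 14.4% in Ctrl+IGF1 replicate 1. The part of short transcripts and ribosomal protein genes in the differences was not tested.

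**Figure D4:**
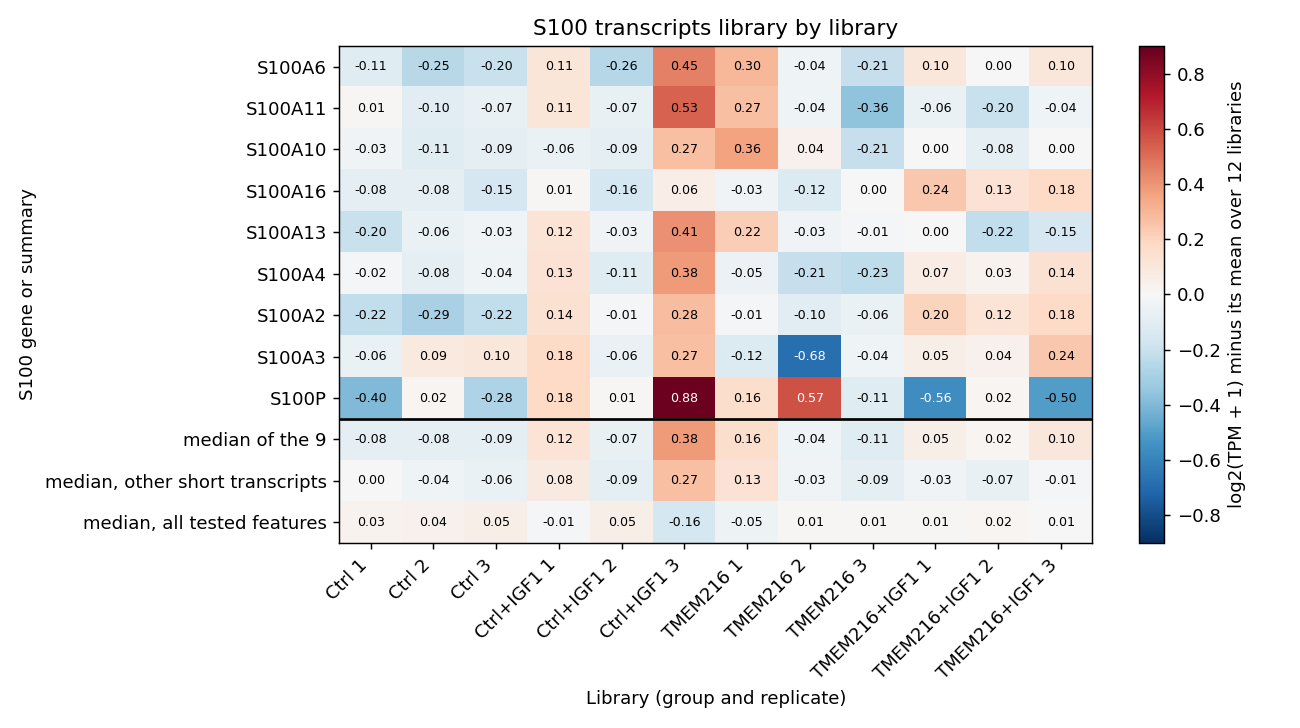
Deviation of each tested S100 gene from its mean over the 12 libraries (log2(TPM + 1), colour and printed value), with libraries in columns and, under the line, the median of the 9 genes, of other features with transcripts of at most 1000 nucleotides and of all tested features. Ctrl+IGF1 replicate 3 is above the mean for all 9 genes (median 0.38), and its short transcripts are too (0.27).

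The 9 genes differed in how closely they followed each other. After centring each gene over the 12 libraries, the root-mean-square difference on the log2 scale was smallest between S100A10 and S100A11 (0.11), followed by S100A6 with S100A10 (0.12) and S100A2 with S100A16 (0.12). A flat gene would be at 0.16 from S100A10, 0.22 from S100A11 and from S100A6, and 0.18 from S100A2. From S100A16 it would be at 0.12, so at this rounding S100A16 was no nearer to S100A2 than to a flat gene. S100P was farthest from all the others and had the widest spread of its own (0.41). Across all tested named genes, those nearest to S100A2 were RPL11 (0.085), TMEM126A (0.089), NDUFAF4 (0.10), HYAL2 (0.11) and ATP5MC1 (0.11), where a flat gene would be at 0.18. Nearest to S100A3 were GYPC (0.098), TM7SF2, PDE4A, RHBDD2 and ZNF771 (up to 0.14), with a flat gene at 0.24. Nearest to S100P was RPL37 (0.26), with a flat gene at 0.41. All these distances share the same 12 libraries and the same scaling. S100A3 and S100A4 overlap on the same strand in GENCODE v29, and S100A13 overlaps S100A1 on the opposite strand, so reads of these genes could have been divided between them which makes these values uncertain.

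The genes of proteins that S100 members bind were listed as well. Of 23 listed partners, 22 were tested, and 0 passed in any of the 7 comparisons in limma, where 0.0153% to 5.22% of all features did. At an unadjusted p under 0.05 there were 0 to 4. The 4 of 22 came in the averaged TMEM216 comparison, in which 20.1% of all features had such a p, a share near theirs. Annexin A2 (ANXA2), which pairs with S100A10, was at 2123 ± 57.9 TPM in Ctrl, 1964 ± 107 in Ctrl+IGF1, 2239 ± 73.9 in TMEM216 and 2094 ± 9.56 in TMEM216+IGF1 (SD, n = 3 each). Annexin A1 (ANXA1) was at 1238 to 1394 TPM and CACYBP at 244 to 262 TPM in the group means. MYH9, the nonmuscle myosin chain bound by S100A4, was at 308 ± 4.31 TPM in Ctrl and 259 to 269 TPM in the other group means. All 4 other annexins tested also gave 0 passing genes in the 7 comparisons, with 0 to 2 at an unadjusted p under 0.05.

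The S100A10 and annexin A2 complex is known as a surface receptor for plasminogen, and 6 genes of plasminogen activation, with its inhibitors and receptor, were listed beside it. Averaged over IGF1, 1 of the 6 rose (PLAUR) and 2 fell (SERPINB2 and PLAT) in the TMEM216 population, where 5.22% of all features passed. The list's median difference was -0.025. SERPINB2, an inhibitor of urokinase, was at 75.2, 78.1 and 68.6 TPM in Ctrl and 82.2, 89.8 and 73.4 TPM in Ctrl+IGF1, against 41.3, 43.7 and 56.5 TPM in TMEM216 and 45.3, 52.9 and 47.6 TPM in TMEM216+IGF1. All 6 TMEM216 libraries lay below all 6 Ctrl libraries, and the difference was -0.69 (SE 0.084, adjusted p = 7.33e-04). PLAT, the tissue plasminogen activator, fell by 0.36 (adjusted p = 0.00285), and PLAUR, the urokinase receptor, rose by 0.30 (adjusted p = 0.00539). These 3 averaged calls held in all 12 fits that left out 1 library. Taken singly in limma, PLAT passed only without IGF1 (-0.50, adjusted p = 0.00855, lost in 1 of the 12 fits). PLAUR passed only with IGF1 (0.35, adjusted p = 0.0286, lost in 7). SERPINB2 passed without IGF1 (-0.65, lost in 5) and with it (-0.74, lost in 1). PECAM1 also differed in the averaged comparison, as given above, and its part in these calls was not tested.

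Among 33 other tested EF-hand genes, 1 rose and 1 fell in the averaged TMEM216 comparison, a share near the 5.22% of all features. EFHD2, an actin-binding EF-hand protein, was at 136, 131 and 127 TPM in Ctrl and 134, 129 and 141 TPM in Ctrl+IGF1, against 170, 157 and 162 TPM in TMEM216 and 180, 161 and 181 TPM in TMEM216+IGF1. The 6 TMEM216 libraries lay above the 6 Ctrl libraries, with a rise of 0.34 (SE 0.05, adjusted p = 0.00246), and the call held in the same 12 fits. Taken singly in limma, EFHD2 passed only with IGF1 (0.37, adjusted p = 0.0239), and that call was lost in 3 of the 12 fits. MYL9, a regulatory light chain of myosin, fell by 0.31 (SE 0.066, adjusted p = 0.0175), and its call was lost when Ctrl replicate 3 or TMEM216+IGF1 replicate 1 or 2 was left out. Neither IGF1 comparison gave a passing gene in this list.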

How the data were processed

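Total RNA of MDA-231-LM2 cells was made into libraries with a TruSeq RNA kit, per the labels' protocols. The authors deposited TPM values for 20443 Ensembl and 1131 assembled features in 12 libraries. The submitters' processing notes name HISAT2, StringTie and RSEM. Their versions, the build and the gene annotation were not given in the sources used here, and TPM keeps no depth. Groups came from the sample titles. Values were taken as log2(TPM + 1), features with at least 1 TPM in 3 libraries were kept (13071), and the 4 group means were fitted with limma 3.58.1 (R 4.3.3; two-sided, mean-variance trend, Benjamini-Hochberg over all kept features, threshold 0.05). The procedure was tested on simulated data for TMEM216 against Ctrl without IGF1. The noise there was independent for each feature, and the changes were larger than those of the S100 genes in that comparison. How it handles smaller differences or shifts shared by many features of a library was not tested. Likeness is the root-mean-square difference of centred values, for the 3 genes with the widest range of group means and their 5 nearest named genes; of each other list, up to 4 passing genes per comparison were named. The S100 genes and all lists were chosen with earlier results of these data known. Transcript length, gene order and overlap are from GENCODE v29 and promoters from RefSeq GRCh38.p14. The alternatives tried were 0.1 as pseudocount, no filter, at least 5 TPM in place of 1, quantile and median-of-ratios scaling, no trend, a replicate block, only the 6 libraries compared, each library left out in turn, and both libraries that stood apart left out. Tables were handled with pandas 2.3.3 and figures drawn with matplotlib 3.10.9 in Python 3.11.15.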

Additional observations from a re-analysis of the deposited data

How the results depend on the processing

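In the 7 comparisons no S100 gene passed under any alternative run, except S100A2 in the averaged IGF1 comparison, so that the count over single libraries left out ran from 0 to 1; the passing fit left out Ctrl+IGF1 replicate 2. The counts over all features moved more, from 43 to 288 (TMEM216 without IGF1, 143 as reported), 49 to 462 (with IGF1, 211), 392 to 1061 (averaged, 682), 0 to 5 (IGF1 in Ctrl, 4), 1 to 7 (IGF1 in TMEM216, 2), 1 to 11 (averaged IGF1, 7) and 1 to 3 (interaction, 2). No pairing of libraries by replicate number was seen (18 same-numbered pairs correlated at -0.286 to 0.165, 36 others at -0.274 to 0.278). These correlations are of deviations from means of 3 libraries, so they cannot exclude a pairing, and the labels state none. The replicate block left all 63 gene results on the same side of the threshold. Its counts over all features were 77 without IGF1, 140 with IGF1, and 1 each for IGF1 in Ctrl, IGF1 in TMEM216, averaged IGF1 and the interaction. With only the 6 libraries compared, 49 features passed in each TMEM216 comparison. Scaling moved the median of all features in the interaction from 0.107 to 0.004 (median of ratios) and 0.011 (quantile).

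Small differences changed sign, and the cause was not tested. Quantile normalization gave -0.022 for S100A11 (TMEM216 without IGF1), 0.047 for S100A6 and -0.0063 for S100A2 (TMEM216 with IGF1) and -0.0098 for S100A10 (averaged IGF1). Median-of-ratios scaling gave -0.029 for S100A2 (TMEM216 with IGF1) and -0.049 for S100A4 (interaction), and a pseudocount of 0.1 gave -0.039 for S100P (averaged IGF1). Without both libraries that stood apart, S100A10 was at -0.0043 and 0.053 (TMEM216 without and with IGF1), -0.0014 and 0.056 (IGF1 in Ctrl and in TMEM216) and 0.057 (interaction). In the same fit S100A11 was at -0.14 (TMEM216 without IGF1), 0.098 (IGF1 in TMEM216) and 0.021 (interaction), and S100A6 at 0.14 (TMEM216 with IGF1) and 0.080 (interaction). With IGF1, TMEM216 against Ctrl was 0.067 for S100A4 and 0.049 for S100A3, and S100P was at 0.005 (averaged TMEM216) and -0.13 (averaged IGF1).

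Leaving out 1 library turned 28 of 756 results. The ranges for S100A10 were -0.058 to 0.085 (averaged IGF1), -0.0014 to 0.18 (IGF1 in Ctrl), -0.23 to 0.056 (IGF1 in TMEM216), -0.034 to 0.11 (averaged TMEM216), -0.13 to 0.053 and -0.0043 to 0.28 (TMEM216 with and without IGF1). For S100A11 they were -0.22 to 0.098 (IGF1 in TMEM216) and -0.14 to 0.17 (TMEM216 without IGF1), and for S100A6 -0.065 to 0.19 (IGF1 in TMEM216), -0.0036 to 0.17 (averaged TMEM216) and -0.21 to 0.14 (TMEM216 with IGF1). For TMEM216 with IGF1 they were -0.047 to 0.10 for S100A2, -0.11 to 0.049 for S100A3 and -0.18 to 0.067 for S100A4, which ran from -0.06 to 0.18 in the interaction. Averaged IGF1 ran from -0.022 to 0.089 for S100A13 and from -0.12 to 0.10 for S100P. The deposited TPM keep no counts, so what depth limits could not be measured, and S100P and S100A14 are the genes closest to the filter.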
